A study of Mus musculus with 14 samples.

Results

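Inhibins, activins and anti-Mullerian hormone are secreted proteins of the TGF-beta superfamily, and follistatins are the proteins that bind and neutralise activins. In the testis the Sertoli cell is the main source of inhibin B, which joins the alpha subunit from Inha to the beta B subunit from Inhbb and lowers FSH release from the pituitary. Activins are dimers of beta subunits (Inhba, Inhbb), act through serine/threonine kinase receptors and SMAD proteins, and promote the division of immature Sertoli cells and early germ cells. Anti-Mullerian hormone (Amh), which removes the Mullerian duct of the male fetus, is made by immature Sertoli cells and falls as they mature. The genes described here are Inha, Inhba, Inhbb, Fst (follistatin), Fstl3 (follistatin-like 3), Amh and Amhr2 (the type II receptor of Amh). They were found by exact match of the gene name that the scanner files give for each non-control probe, which gave 9 probes of 7 genes out of 41174 probes under 27962 gene entries.

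The study compared whole testis of C57BL/6 mice on single-colour Agilent arrays with 60-base probes, untreated and kept with their mothers, in wild type (WT) and in Glis3KO2, the label given to the Glis3 mutant mice. Glis3 encodes a zinc finger transcription factor of the GLI-related family. The groups held 4 WT and 4 Glis3KO2 arrays at 1 week and 3 WT and 3 Glis3KO2 arrays at 4 weeks. The sample labels give 4 weeks where the series design text gives 3 weeks, and the sample labels were followed. The labels do not say that the arrays are of separate animals, so p-values measure only the spread between these samples, and they do not describe the Glis3KO2 allele.

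Values are log2 signals minus the 75th percentile of the same array, so a value of 0 stands for a probe as bright as that percentile. A probe's level was compared only with its own level in other groups. The Glis3 probe was at -4.87 ± 0.18 (SD, n = 4) and above background on 4 of 4 arrays in 1-week WT, and on 0 of 4 in 1-week Glis3KO2, while at 4 weeks it was above background on no array of either genotype. Among the 1-week arrays, Glis3KO2 replicate 4 lay alone on its slide, was scanned on another day, and had a germ cell marker mean of -0.01 against 1.34 to 1.92 on the other Glis3KO2 arrays. The 9 member probes were well above background on all 14 arrays and saturated on none.

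The probe sequences below are of 5 members, printed 5′ to 3′ in lower case as the files give them, with no part in capitals. Positions are those of the files' mm7 annotation. The Fst probe is shown because Fst is the member whose genotype difference changed sign with age. It spans 673 bases of the genome, chr13:111626922-111627594 on the minus strand, so 613 bases of genome lie inside its 60-base target. The Amh probe lies at chr10:80597080-80597139 (plus strand) and the Inhba probe at chr13:15394279-15394338 (plus strand). Inhbb and Inha have 2 probes each. The Inhbb probe shown, at chr1:119278359-119278418 on the minus strand, is the one that gave no call at 1 week. The brighter Inhbb probe, on which the gene was called and whose sequence is not printed, lies 2334 bases away at chr1:119276025-119276084. The Inha probe shown is the brighter one, at chr1:75736294-75736353 (plus strand), 2720 bases from the second Inha probe.
Fst: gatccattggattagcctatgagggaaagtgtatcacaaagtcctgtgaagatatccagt
Amh: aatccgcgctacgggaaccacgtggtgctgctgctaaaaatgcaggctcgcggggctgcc
Inhba: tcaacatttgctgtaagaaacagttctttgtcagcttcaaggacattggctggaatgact
Inhbb: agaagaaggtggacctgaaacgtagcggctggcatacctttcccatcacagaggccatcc
Inha: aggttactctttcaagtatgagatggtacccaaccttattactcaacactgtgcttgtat

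At 1 week, 4 of the 7 genes were higher in Glis3KO2 (Amh, Amhr2, Inha and Inhbb), 1 was lower (Fst), and 2 did not pass the test (Inhba and Fstl3). At 4 weeks all 7 were higher in Glis3KO2, from 1.85-fold for Inha to 11.3-fold for Fst (5.81-fold with normexp background correction). A gene was called on its brighter probe at a Benjamini-Hochberg adjusted p under 0.05 in limma, adjusted over all probes tested. Over all 33710 probes tested at 1 week, 9.99% were called (3.24% higher and 6.76% lower), and over the 31382 tested at 4 weeks, 69.4% were called (35.6% higher and 33.8% lower). The members' median log2 difference was 0.51 at 1 week, where the median of all probes was -0.12, and 1.71 at 4 weeks, where it was 0.05. In 5 of the 7 genes the arrays of the genotypes did not overlap at 1 week, as in 27.1% of all probes, and in 7 of 7 at 4 weeks, as in 77.0% of all probes.

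**Figure D1:**
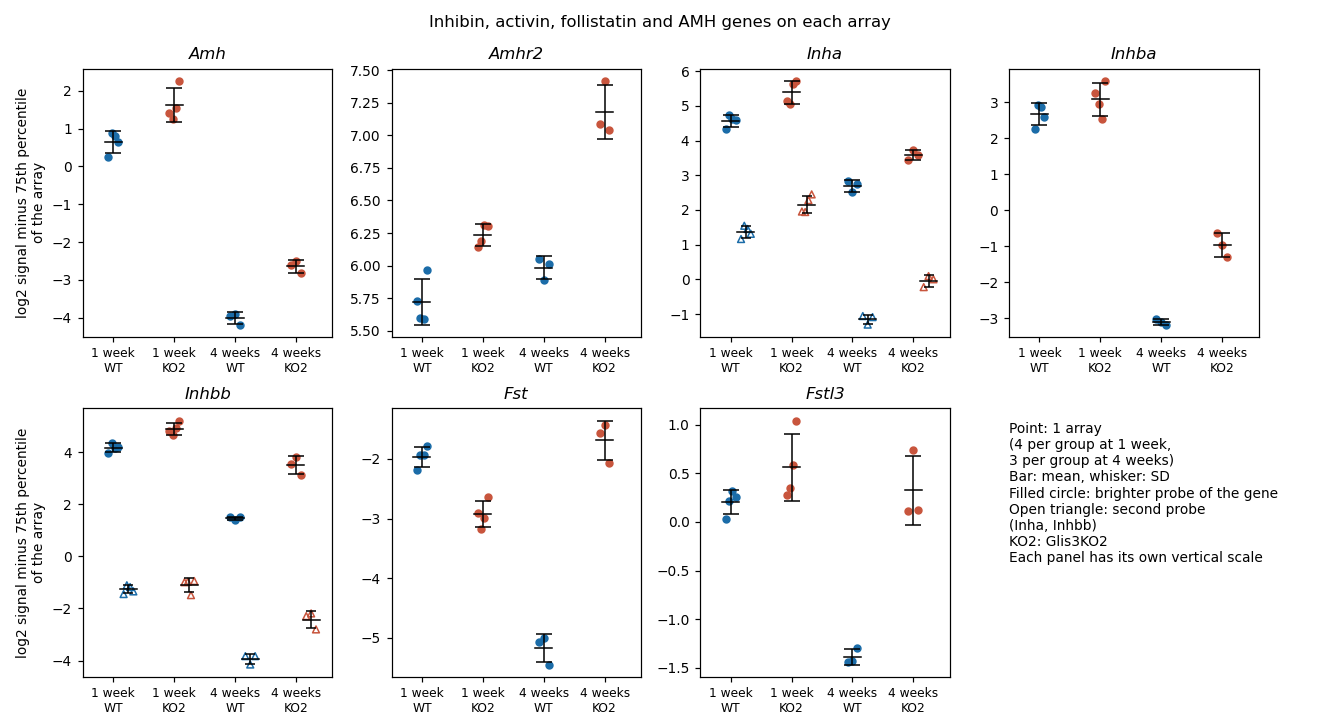
Each point is 1 array and each panel 1 gene, with the log2 signal relative to the 75th percentile of the array on the vertical axis and the 4 groups on the horizontal axis; bars are means and whiskers SDs, and open triangles mark the second probe of Inha and Inhbb. Fst in 4-week WT lies at -5.45 to -5.01, below every other array, while the 4-week Glis3KO2 arrays lie at -2.06 to -1.44.

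The hormone gene Amh was read at 0.24, 0.90, 0.80 and 0.66 in 1-week WT replicates 1 to 4. In 1-week Glis3KO2 it was read at 1.42, 1.24, 1.55 and 2.27. All 4 Glis3KO2 arrays were above all 4 WT arrays, and replicate 4 was the highest. The genotypes differed by 0.97 on the log2 scale (SE 0.25, limma adjusted p = 0.0461), or 1.96-fold, and by 0.75 with adjusted p = 0.0728 without Glis3KO2 replicate 4. At 4 weeks WT was at -3.95, -3.90 and -4.18 and Glis3KO2 at -2.61, -2.50 and -2.82. The groups were again separate, by a log2 difference of 1.37 (SE 0.16, limma adjusted p = 0.000746), or 2.58-fold. The order of the levels was therefore 1-week Glis3KO2, 1-week WT, 4-week Glis3KO2 and 4-week WT, with no overlap between neighbours.

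Amhr2, the receptor that binds the hormone, was the only member not called lower with age in either genotype. Its values in 1-week WT were 5.73, 5.60, 5.59 and 5.97, and in 1-week Glis3KO2 they were 6.14, 6.19, 6.31 and 6.30. At 4 weeks they were 6.05, 5.89 and 6.01 in WT and 7.09, 7.42 and 7.04 in Glis3KO2. The genotypes did not overlap at either age, and the 4-week Glis3KO2 arrays were the highest of all 14. The log2 difference between genotypes was 0.51 (SE 0.12, limma adjusted p = 0.0420) at 1 week and 1.20 (SE 0.16, limma adjusted p = 0.00105) at 4 weeks. The 1-week and 4-week WT arrays, the lowest neighbours in the order, overlapped.

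The alpha subunit gene Inha encodes the part that every inhibin dimer carries. Its brighter probe was read at 4.34, 4.74, 4.61 and 4.58 in 1-week WT and at 5.14, 5.06, 5.61 and 5.72 in 1-week Glis3KO2. At 4 weeks it was read at 2.83, 2.50 and 2.74 in WT and at 3.43, 3.73 and 3.58 in Glis3KO2. Inha was thus higher in Glis3KO2 by a similar step at both ages, with every Glis3KO2 array above every WT array of its age. The step was 0.82 (SE 0.18, limma adjusted p = 0.0369) at 1 week and 0.89 (SE 0.16, limma adjusted p = 0.00273) at 4 weeks. The second Inha probe gave 0.79 (limma adjusted p = 0.0296) and 1.11 (limma adjusted p = 0.00121), so both probes were called at both ages.

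Inhba, which encodes the beta A subunit of activin A, was read at 2.25, 2.93, 2.88 and 2.60 in 1-week WT and at 3.27, 2.94, 2.52 and 3.59 in 1-week Glis3KO2. The genotypes overlapped at 1 week, with a log2 difference of 0.42 (95% interval -0.16 to 1.00, limma adjusted p = 0.254). At 4 weeks Inhba was read at -3.03, -3.10 and -3.17 in WT and at -0.63, -0.97 and -1.29 in Glis3KO2. The 3 WT arrays lay close together and well under the Glis3KO2 arrays. They differed by 2.13 (SE 0.20, limma adjusted p = 0.000529), or 4.39-fold.

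Inhbb encodes the beta B subunit shared by inhibin B and activin B. On the brighter probe 1-week WT was at 3.95, 4.36, 4.15 and 4.21 and 1-week Glis3KO2 at 4.80, 4.65, 4.92 and 5.21. At 4 weeks WT was at 1.49, 1.40 and 1.49 and Glis3KO2 at 3.55, 3.82 and 3.12. The groups were separate at both ages, by 0.73 (SE 0.15, limma adjusted p = 0.0335) at 1 week and 2.03 (SE 0.20, limma adjusted p = 0.000558) at 4 weeks. The second Inhbb probe was read at -1.45, -1.11, -1.18 and -1.35 in 1-week WT and at -0.99, -0.98, -1.49 and -0.95 in 1-week Glis3KO2. Here replicate 3 of Glis3KO2 fell under all WT arrays, the groups overlapped, and the difference of 0.17 was not called (95% interval -0.19 to 0.53, limma adjusted p = 0.444). At 4 weeks the second probe gave 1.51 (limma adjusted p = 0.00113), so the probes of Inhbb were both called at 4 weeks and disagreed on the call at 1 week.

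Follistatin, from Fst, binds activin nearly irreversibly and blocks its receptor sites. Its levels in 1-week WT were -2.19, -1.94, -1.93 and -1.79, and in 1-week Glis3KO2 they were -2.90, -3.17, -2.99 and -2.64. All 4 Glis3KO2 arrays were below all 4 WT arrays, by a log2 difference of -0.96 (SE 0.15, limma adjusted p = 0.0142), or 1.95-fold. At 4 weeks the order was the opposite, with WT at -5.07, -5.01 and -5.45 and Glis3KO2 at -1.56, -1.44 and -2.06. The difference of 3.49 (SE 0.22, limma adjusted p = 0.000420) was higher than in 99.6% of the probes tested at that age. This rank is of the main processing only, and the lowest difference over the alternatives was 2.54. In level, 4-week Glis3KO2 (mean -1.69) came first and overlapped with 1-week WT (mean -1.96), followed by 1-week Glis3KO2 (-2.92) and 4-week WT (-5.18).

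Fstl3 encodes a second, smaller activin-binding protein of the follistatin family. It was read at 0.03, 0.22, 0.32 and 0.25 in 1-week WT and at 0.28, 0.35, 0.59 and 1.04 in 1-week Glis3KO2. These groups overlapped and the difference of 0.36 did not pass the test (95% interval -0.06 to 0.77, limma adjusted p = 0.183). At 4 weeks WT was at -1.44, -1.42 and -1.29 and Glis3KO2 at 0.11, 0.73 and 0.13. They differed by 1.71 (SE 0.20, limma adjusted p = 0.000781), or 3.27-fold, and the 4-week Glis3KO2 arrays overlapped with the 1-week arrays of both genotypes.

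**Figure D2:**
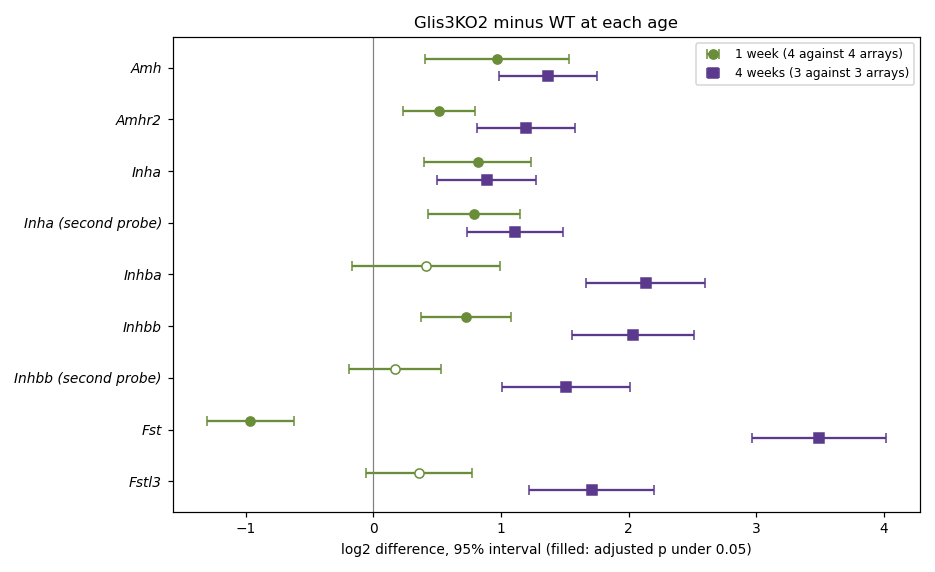
Log2 difference, Glis3KO2 minus WT, of each of the 9 probes at 1 week (circles) and 4 weeks (squares) with its 95% interval; filled symbols have a limma adjusted p under 0.05. All 4-week values lie to the right of 0, from 0.89 for Inha to 3.49 for Fst, and at 1 week Fst alone lies to the left, at -0.96.

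The 4-week calls held in every alternative run for these probes (19 for each brighter probe), whereas the 1-week calls did not. With the slide as a block the 1-week difference was 0.76 for Amh (limma adjusted p = 0.120), 0.50 for Amhr2 (0.143), 0.70 for Inha (0.129) and 0.63 for Inhbb (0.108), all 4 of which missed the threshold, while Fst was still called (-1.05, limma adjusted p = 0.0331). Within slide 1 and slide 2 the values were 0.96 and 0.47 for Amh, 0.90 and 0.40 for Inha, and 0.81 and 0.37 for Inhbb. They were 0.56 and 0.40 for Amhr2 and -0.89 and -1.31 for Fst, with every sign unchanged. Slide 1 held replicates 1 and 3 of each genotype. Slide 2 held WT replicates 2 and 4 and Glis3KO2 replicate 2 only. Leaving out 1 array at a time left 0 to 3 higher calls in limma, with 4 or 5 higher at an unadjusted p under 0.05 each time. In the main 1-week fit limma gave 12199 of all 33710 probes an unadjusted p under 0.05, in either direction. The count of higher calls was 0 without WT replicate 1, 2 or 3 or without Glis3KO2 replicate 1 or 4. It was 1 without Glis3KO2 replicate 3, and 3 without WT replicate 4 or Glis3KO2 replicate 2. Fst stayed called lower in all 8. More spots were well above background on the first 3 WT arrays of this age (82.6% to 86.6%) than on the other 5 (74.3% to 78.5%). The part of this share in the 1-week differences was not tested. Within slides 4 and 5 the 4-week differences were 3.76 and 2.95 for Fst, 2.30 and 1.80 for Inhba, and 1.51 and 1.08 for Amh. Slide 5 held WT replicate 2 and Glis3KO2 replicate 3 only, so its values are differences between single arrays.

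Between 1 and 4 weeks the WT testis lost signal in 6 of the 7 genes, and in none did it gain, at limma adjusted p under 0.05 (also 0 gains at an unadjusted p under 0.05). Over all 35031 probes tested in WT, 81.6% were called, 51.7% lower and 29.9% higher at 4 weeks, and the median log2 difference was -0.59 against -2.70 for the members. Inhba fell by 5.76 on the log2 scale (SE 0.17, limma adjusted p = 2.04e-07), or 54.3-fold. Amh fell by 4.66 (25.3-fold), Fst fell by 3.22 (9.29-fold; with normexp background correction Amh and Fst fell by 3.86 and by 2.31, or 14.5-fold and 4.96-fold), Inhbb fell by 2.70, Inha fell by 1.88 and Fstl3 fell by 1.59, with limma adjusted p from 2.04e-07 to 7.27e-06. Amhr2 was the gene not called (0.26, limma adjusted p = 0.0751, with the sign reversed to -0.11 under quantile normalization). No slide held both ages, so age and slide cannot be told apart.

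In Glis3KO2 the same interval gave 4 genes lower and 2 higher, where 50.6% of 32192 probes were called, 28.7% lower and 21.9% higher, and the median of all probes was -0.16. Amh fell by 4.26 (SE 0.27, limma adjusted p = 5.16e-06) and Inhba fell by 4.05 (SE 0.29, limma adjusted p = 1.01e-05). Inha fell by 1.81 and Inhbb fell by 1.40. Fst was higher at 4 weeks than at 1 week in Glis3KO2, by 1.24 (SE 0.23, limma adjusted p = 0.00210), and Amhr2 was higher by 0.94 (SE 0.19, limma adjusted p = 0.00304). Fstl3 differed by -0.24 (95% interval -0.83 to 0.35, limma adjusted p = 0.470). These age comparisons use the same arrays as the genotype comparisons.

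**Figure D3:**
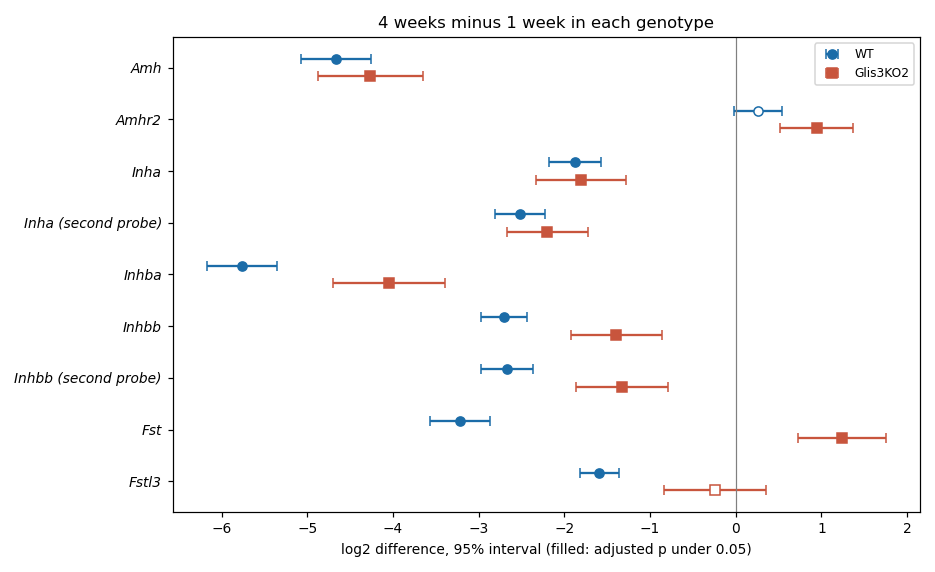
Log2 difference, 4 weeks minus 1 week, of each probe in WT (circles) and Glis3KO2 (squares) with its 95% interval; filled symbols have a limma adjusted p under 0.05. Fst lies at -3.22 in WT and at 1.24 in Glis3KO2, while Amh lies at -4.66 and -4.26.

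Whether the genotype difference itself changed with age was tested in 1 fit of all 14 arrays. It was larger at 4 weeks than at 1 week for 5 genes (Fst, Inhba, Fstl3, Inhbb and Amhr2), smaller for 0 (also 0 at an unadjusted p under 0.05), and not called for Amh and Inha. Of 35143 probes, 51.9% were called, 31.1% in the higher direction and 20.8% in the lower, with a median of 0.29 against 1.31 for the members. For Fst the change was 4.46 (SE 0.27, limma adjusted p = 1.61e-06; 3.33 with normexp background correction), which crosses 0 because Fst was lower in Glis3KO2 at 1 week. It was 1.72 for Inhba (limma adjusted p = 0.00155), 1.35 for Fstl3 (limma adjusted p = 0.00174) and 1.31 and 1.34 for the probes of Inhbb. For Amhr2 it was 0.68 (limma adjusted p = 0.0109), 1.47 under quantile normalization, and not called at 0.34 (limma adjusted p = 0.300) when arrays were centred on their median. Amh gave 0.40 (95% interval -0.31 to 1.11, limma adjusted p = 0.325) and the brighter Inha probe 0.07 (95% interval -0.48 to 0.63, limma adjusted p = 0.831; 0.69 and called under quantile normalization).

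Whole testis is a mixture of cell types, so fewer cells of a type and less RNA per cell cannot be told apart. Of the marker lists, 12 Sertoli cell genes (for example Clu, Dhh and Shbg) had a mean log2 signal of 1.76 to 1.90 on the 1-week WT arrays, 2.02 to 2.27 in 1-week Glis3KO2, 1.73 to 1.88 in 4-week WT and 3.18 to 3.63 in 4-week Glis3KO2. The similar WT means at the 2 ages hide opposite changes of single markers. In WT, 8 of the 12 were lower at 4 weeks than at 1 week and 3 were higher. Their log2 differences ran from -2.57 to 5.04, with a median of -0.79. Over all probes tested in WT, 51.7% were lower and 29.9% higher. All 12 markers were above background on every array. Of these, 3 were higher at 1 week and 9 at 4 weeks in Glis3KO2, with median differences of 0.37 and 1.94. The 1-week count was 0 to 5 over the alternatives, 0 with the slide block, 0 without WT replicate 1 or 2, and 1 without WT replicate 3 or Glis3KO2 replicate 1, and the 4-week count was 9 to 11. Leydig cell markers went from 4 of 8 higher at 1 week (median 0.46) to 4 of 8 lower and 1 higher at 4 weeks (median -1.25), with Cyp11a1 at -3.68 and Star at 1.35. Germ cell markers were lower in 3 of 8 genes at 1 week (median -1.31) and 6 of 8 at 4 weeks (median -1.21), spermatid markers in 10 of 10 at 4 weeks (median -2.96), and macrophage markers were higher in 4 of 9 at 1 week and 7 of 9 at 4 weeks, where 1 was lower. Peritubular cell markers were higher in 0 of 7 genes at 1 week and in 5 of 7 at 4 weeks, with 1 lower (median 1.23), and endothelial cell markers in 1 of 7 and 4 of 7 (median 1.12). Apart from the Sertoli cell list, marker counts are of the main fit only and were not taken under the alternatives. Over all probes, 1-week calls numbered 3369 in the main fit and 681 with the slide block. Of 8 epididymal genes, Lcn5, Lcn8 and Spint4 were above background on no array and 3 to 5 were above it on all arrays of a group. At 4 weeks the epididymal genes Crisp1 (-4.28) and Rnase10 (-2.01) were lower in Glis3KO2 and Cst11 (1.07) was higher, out of 5 tested. Over all probes tested, 3.24% were higher and 6.76% lower at 1 week (median -0.12). At 4 weeks 35.6% of them were higher and 33.8% lower (median 0.05). The part of these cell types in the members' differences was not tested.

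Set against the Sertoli marker mean of the same array, Fst was the member that stood furthest off at both ages. Relative to that mean it was lower in Glis3KO2 by -1.25 at 1 week and higher by 1.94 at 4 weeks, and relative to the list's median by -1.17 and 1.40, with no overlap of arrays in any of these. Inha and Amhr2 at 4 weeks stood lower in Glis3KO2 when set against the markers on either scale: their relative difference was -0.66 and -0.36 against the mean and -1.21 and -0.90 against the median, again with no overlap. For Inhba and Inhbb at 4 weeks the answer turned on the summary, with 0.58 and 0.48 against the mean (no overlap) and 0.04 and -0.06 against the median (overlap). The second Inhbb probe gave -0.04 and -0.59 at 4 weeks and -0.12 and -0.04 at 1 week, against the mean and the median, with overlap in all. Amh at 4 weeks was at -0.18 (overlap) and -0.73 (no overlap), and Fstl3 at 0.16 (overlap) and -0.39 (no overlap). At 1 week Amh, Inha and Inhbb were at 0.68, 0.53 and 0.44 against the mean with no overlap. Against the median they were at 0.76, 0.61 and 0.52 with overlap. The second Inha probe gave 0.50 and 0.58 at 1 week and -0.44 and -0.99 at 4 weeks, against the mean and the median, with no overlap. Amhr2 at 1 week was at 0.22 against the mean (overlap) and 0.31 against the median (no overlap). These relative values are given without a test.

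**Figure D4:**
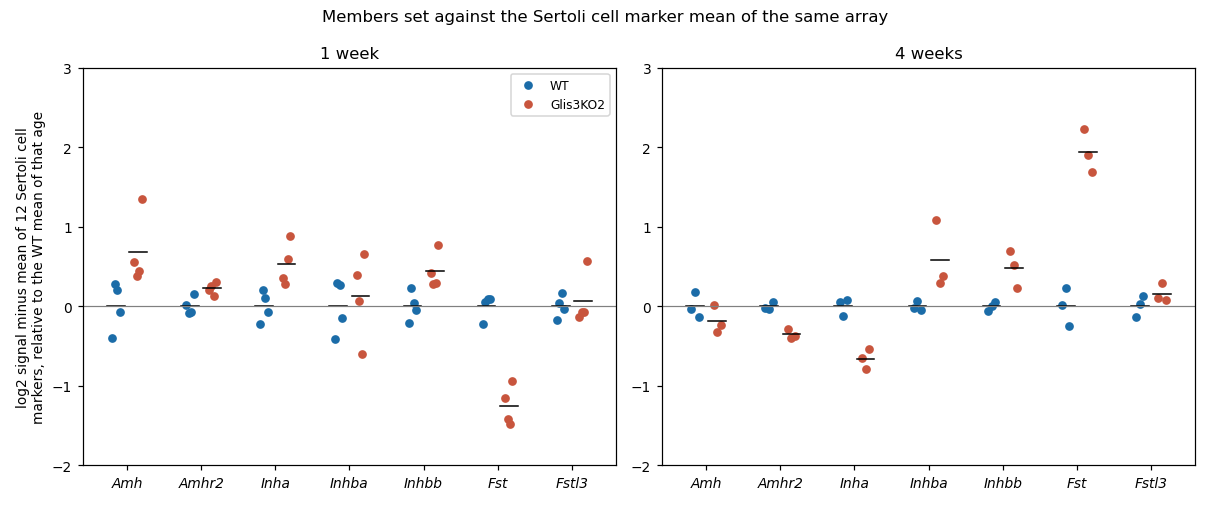
Each point is the log2 signal of a member minus the mean of the 12 Sertoli cell markers on the same array, shifted so that the WT mean of that age is 0; blue is WT, red is Glis3KO2 and black lines are means. Fst lies at -1.25 at 1 week and 1.94 at 4 weeks, and Inha at 4 weeks at -0.66.

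Of 12 genes for receptors of activin and Amh and for proteins that act with or on them, 1 was higher in Glis3KO2 at 1 week: Bambi, a decoy receptor (0.60, limma adjusted p = 0.0496). That count was 0 to 2 over the 24 alternatives, with 0 under the slide block and in each single leave-out other than that of Glis3KO2 replicate 2, which gave 1. Over all probes tested, 3.24% were higher at 1 week, and 35.6% were higher and 33.8% lower at 4 weeks, with a 4-week median of 0.05. Of this list, 5 of 11 tested at 4 weeks were higher and 3 lower, with a median of 0.81. Higher were the type I receptors Acvr1 (0.81) and Bmpr1a (1.73), the type II receptors Acvr2b (1.11) and Bmpr2 (2.21), and Tgfbr3 (1.89), the betaglycan that serves as a co-receptor of inhibin. Lower were the activin receptor genes Acvr2a (-0.90) and Acvr1c (-0.71), and also Tdgf1 (-0.59), which is not itself an activin or Amh receptor gene. A second Acvr2a probe gave 0.77 and was not called, so the probes of this gene went opposite ways. Acvr1b was not called on its brightest probe (0.01) and was lower on another (-0.56). The count of lower genes on this list was 1 to 3 over the alternatives.

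None of the 8 SMAD genes was called at 1 week in limma, with 2 higher and 3 lower at an unadjusted p under 0.05, on the brightest probe of each. Another Smad5 probe was lower at 1 week (-0.79, limma adjusted p = 0.0431). At 4 weeks 5 were higher and 3 lower, where 35.6% of all probes tested were higher and 33.8% lower. Smad3, a transducer of activin signals, was higher by 3.28, and its other probes gave 3.16 and 2.27. The common partner Smad4 was higher by 1.78, the inhibitory Smad7 by 2.26 and the activin transducer Smad2 by 0.59. Lower were the Amh and BMP transducers Smad1 (-1.08) and Smad9 (-1.66) and the inhibitory Smad6 (-2.01). Smad5 was higher by 0.51 on its brightest probe and lower on that other probe (-0.77), and a second Smad9 probe gave 1.32 without a call, so these genes have no settled direction. Leaving out 1 array at a time left 3 to 5 higher SMAD genes, and 3 without WT replicate 1, 2 or 3 or Glis3KO2 replicate 1 or 2. Of 5 other activin subunit and follistatin-like genes, none was called at 1 week in limma (0 at an unadjusted p under 0.05), and at 4 weeks Fstl1 was higher (1.04) and Inhbc lower (-0.84). The lower call was lost (0) with normexp background correction, with the filter on every array and in 1 fit of all arrays.

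The regulators of Amh and inhibin transcription were the most uniform of these lists at 4 weeks, where 11 of 12 were higher in Glis3KO2 and 1 lower, with a median of 1.86. The same count of 11 and 1 was found in all 19 alternatives. Of the 12 Sertoli cell markers, 9 were higher and 0 lower at 4 weeks, with a similar median of 1.94. Over all probes tested at 4 weeks, 35.6% were higher and 33.8% lower. Whether the regulators differed from the Sertoli cell markers was not tested. Sox9 and Sox8, which switch Amh on, were higher by 2.61 and 2.40, Wt1 by 2.04, Gata4 by 1.93, Gata1 by 1.99 and Nr5a1 by 1.80. Fshr, the receptor through which FSH drives inhibin, was higher by 2.48. Dmrt1 was higher by 1.17, Creb1 by 1.16 and Nr0b1, a repressor of Nr5a1, by 1.38. Of the other Creb1 probes, A_52_P517730 gave 1.26 and was called, and A_52_P174396 gave 0.22 without a call (limma adjusted p = 0.164). The lower gene was Crem (-2.21), a germ cell activator whose products also include a repressor of cAMP responses. The probes of Crem disagreed, since others gave -2.39, -1.90, 0.21, 0.23 and -0.06. At 1 week 1 of 12 was called, Nr0b1 (0.51, limma adjusted p = 0.0442), a count that was 0 to 3 over the 24 alternatives, with 0 under the slide block and in each single leave-out other than that of WT replicate 4, which gave 1.

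**Figure D5:**
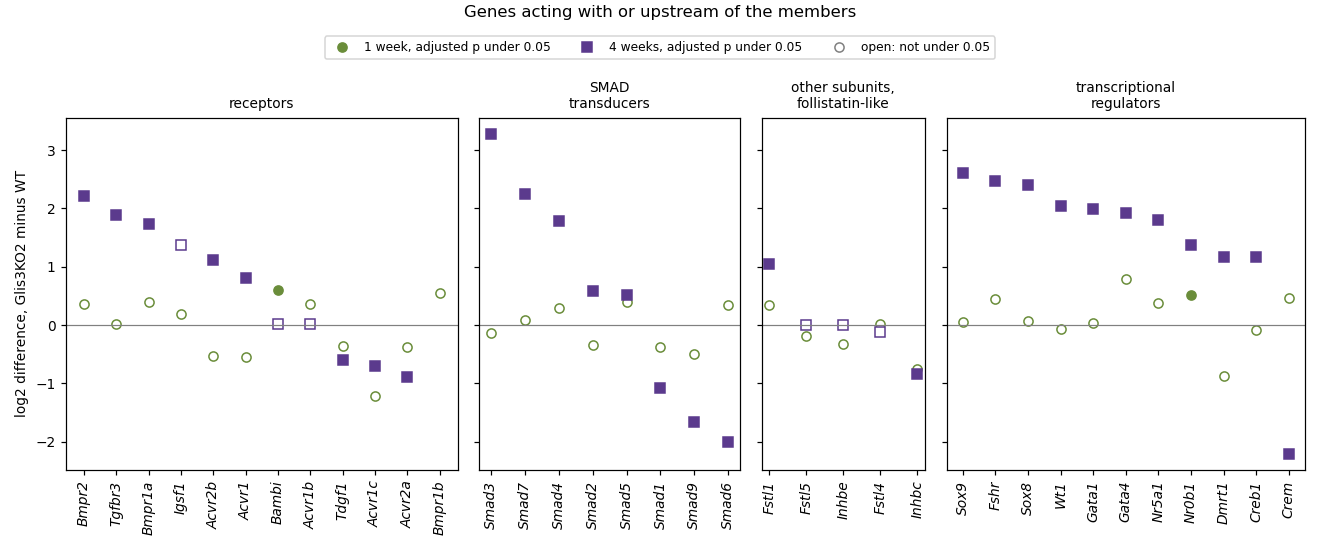
Log2 difference, Glis3KO2 minus WT, of genes of the 4 lists at 1 week (circles) and 4 weeks (squares); filled symbols have a limma adjusted p under 0.05. At 4 weeks 10 of the 11 transcriptional regulators drawn lie between 1.16 and 2.61, while the receptors and SMAD genes lie on both sides of 0.

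Sequence before annotated starts was looked at in the RefSeq table of the GRCm38.p6 build. It held windows for 5 of the 7 genes (Inha, Inhba, Inhbb, Fstl3 and Amhr2). The 250 bases before each annotated start were searched on both strands for the SOX motif AACAAT, the GATA factor motifs AGATAA and, differing in its opening letter, TGATAA, the NR5A1 motif AAGGTCA and the GLIS factor motif TGGGGGG. None of these overlaps another in the matches found. Over all 32851 windows of this length, 9.42% held AACAAT, 9.99% held AGATAA, 7.94% held TGATAA, 4.08% held AAGGTCA and 7.67% held TGGGGGG. Among the members, matches lay in the Amhr2 window, chr15:102445117-102445366 on the plus strand. It is printed because it holds the matches, which are in capitals: AAGGTCA begins at position -231 from the start, and TTATCA, which is TGATAA on the other strand, at position -199. The Inha window, chr1:75507359-75507608 on the plus strand, is printed because it holds the whole target of the second Inha probe, in capitals. That probe targets an Inha transcript and was well above background on all 14 arrays, so this window holds transcribed sequence. It is therefore not wholly upstream of the gene. The lack of a match in it does not describe the bases before the transcript. A match is a description of the letters only.
Amhr2: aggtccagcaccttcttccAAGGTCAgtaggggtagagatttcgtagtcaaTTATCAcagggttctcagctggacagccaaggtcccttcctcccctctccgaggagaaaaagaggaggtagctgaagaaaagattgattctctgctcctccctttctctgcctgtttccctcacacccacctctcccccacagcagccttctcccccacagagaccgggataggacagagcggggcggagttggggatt
Inha: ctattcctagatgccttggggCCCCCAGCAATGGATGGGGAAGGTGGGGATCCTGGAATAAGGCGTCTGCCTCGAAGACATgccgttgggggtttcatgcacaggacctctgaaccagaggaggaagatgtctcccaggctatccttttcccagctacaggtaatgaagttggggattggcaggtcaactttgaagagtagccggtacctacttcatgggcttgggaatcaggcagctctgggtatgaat

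The member probes were also compared with the repeated unit CCCTAA of telomeres, a sequence that some probes of this array design resemble. The best ungapped match scored 3 to 6 in the 9 probes, and 0 of 9 reached 7, against 3.82% of all probes.

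The genes whose centred profiles over the 14 arrays were nearest to each member, by root mean square (RMS) log2 difference among the 26350 probes above background on all arrays, were found as a description. For Amh these were Itm2a (0.29), Agtr2 and Ccnd2, and Agtr2 was also among the 3 nearest to Inhba, after Plagl1 (0.25). Fst had the loosest neighbours, Rrad (0.42), Ccn1 (named Cyr61 in the files) and Camk2d. Inhbb was followed most closely by Hs6st1 (0.091), Lpar6 (P2ry5 in the files) and Nono, and Fstl3 by Lasp1 (0.10), Ak3 and Tmem43. For Inha they were Nt5c3b (Nt5c3l in the files, 0.13), Ppib and Hmgb1, and for Amhr2 they were Lrpap1 (0.13), Sbsn and Ube2f. All points of these profiles share the same 14 arrays and the same scaling.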

How the data were processed

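Per the labels, Cy3-labelled cRNA of testis total RNA was hybridised in single colour, and per the submitters' processing notes Agilent Feature Extraction 9.5 turned the scans into values. The deposited scanner files hold intensity values, of which the processed intensity (background-subtracted and detrended within the array, not normalised between arrays, per the file headers) was used, together with flags (0 or 1) for each spot. All 45018 intensity values per array are equal in the authors' series table. Flagged non-uniform or outlier spots (65 to 131 of 43379 per array) were left out, log2 values averaged per probe, and the 75th percentile subtracted. A probe was tested if at least 3 arrays of 1 group had it well above background, using limma 3.58.1 (R 4.3.3), separately per age, per genotype, and for all 14 arrays; the procedure was tested on simulated data. The brightest probe stands for a gene. The members and lists were chosen with earlier results of these data known. Of 107 list genes, 103 matched by name and 3 by synonym. Named genes are the members, list genes called in a genotype comparison (marker genes as examples), and the 3 genes nearest to each member, and not every such gene is reported here. Motif and relative-level values are descriptions. Alternatives are given in the closing section; the number of arrays limits the precision. Python 3.11.15, numpy 2.4.6, pandas 2.3.3 and matplotlib 3.10.9 made tables and figures.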

Additional observations from a re-analysis of the deposited data

Results flagged for a closer look

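The difference between genotypes was not the same at both ages for 5 of the 7 genes, by the test of that difference in 1 limma fit of all 14 arrays. Of all 35143 probes, 51.9% were called in this test, 31.1% in the higher direction and 20.8% in the lower. The change from 1 to 4 weeks in the log2 difference (Glis3KO2 minus WT) was 4.46 for Fst, which was lower in Glis3KO2 on all 4 arrays at 1 week and higher on all 3 at 4 weeks. For Inhba it was 1.72, for Fstl3 it was 1.35, for the brighter Inhbb probe it was 1.31, and for the second Inhbb probe it was 1.34. For Amhr2 it was 0.68, a value that was not called under median scaling.

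On the second Inhbb probe, replicate 3 of 1-week Glis3KO2 (-1.49) lay apart from the other 3 (-0.99 to -0.95). Its gap to the nearest of them was 0.915 of the group's range. Chance flags about 1 in 20 groups, and 18 groups of 4 arrays were examined here. On the brighter Inhbb probe the same array, at 4.92, lay within its group.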

How the results depend on the processing

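At 4 weeks all 7 genes were higher in each of the 19 alternatives, and no alternative reversed a called member. At 1 week the 4 higher genes became 1 with quantile normalization and 1 with no filter. They became 0 with the slide block, with the replicate block and within slide 1 (4, 4 and 3 higher at an unadjusted p under 0.05 in limma). In the main fit limma gave 12199 of all 33710 probes an unadjusted p under 0.05, in either direction. Slide 2 held Glis3KO2 replicate 2 alone with WT replicates 2 and 4, so no count is given for it. Leaving out 1 array gave 0 to 3 higher genes. Among alternatives added after seeing the data, leaving out WT replicate 4 and Glis3KO2 replicate 4 gave 1, and leaving out Glis3KO2 replicates 1 and 4 gave 0 (4 unadjusted). The 1 lower gene, Fst, became 0 with the replicate block, within slide 1 and without Glis3KO2 replicates 1 and 4 (1 unadjusted in each). In WT between ages, Amhr2 became 1 higher call with trend and robust moderation, with the replicate block and without 1-week WT replicate 4 (leave-one-out range 0 to 1). The cause was not tested. The replicate numbers did not pair the samples: deviations of same-numbered arrays correlated at -0.17 to 0.14 at 1 week and -0.28 to 0.13 at 4 weeks. The block changed no other member call.

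Over all probes, 1-week calls numbered 3369, and 681 with the slide block, 587 with the replicate block and 0 within slide 1. Of those called, 32.4% were higher, against 70.8% with median scaling, which moved the median of all probes from -0.12 to 0.14, and 50.8% with quantile normalization. The members' directions at 1 week were the same under all of these.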

Other observations

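Age comparisons of the genes that act with the members are given beside those of all probes, of which 51.7% were lower and 29.9% higher at 4 weeks in WT, and 28.7% and 21.9% in Glis3KO2. In WT, 9 of the 12 regulators of Amh and inhibin transcription were lower at 4 weeks than at 1 week and 1 was higher, and in Glis3KO2 4 were lower and 3 higher. Sox9 fell by 2.64 in WT (limma adjusted p under the threshold) and differed by -0.08 in Glis3KO2 without a call, and Wt1 fell by 1.94 in WT and differed by 0.17 in Glis3KO2. Crem was higher at 4 weeks by 5.73 in WT and by 3.06 in Glis3KO2. Of the 8 SMAD genes, 5 were lower and 3 higher with age in WT, and 4 were lower and 1 higher in Glis3KO2. Smad3 fell by 3.28 in WT and differed by 0.14 in Glis3KO2, and Smad7 fell by 4.30 and by 2.13. The difference of the genotype effects was called for 11 regulators in the higher and 1 in the lower direction, and for 4 and 3 SMAD genes. Over all 35143 probes tested for this difference, 31.1% were called in the higher and 20.8% in the lower direction. Age and slide cannot be told apart in these values.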
